A study of Mus musculus with 34 samples.

Results

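The RNA of epididymal fat from HF4 mice was compared directly with that of HF4-REV mice on 2 of the 34 two-colour arrays of a diet study in mice, and the ratios on these 2 arrays are described here. HF4 mice ate a high fat diet and were the offspring of HF3, so that the line had been on that diet for several generations; HF4-REV mice had the same kind of parents, HF3, but ate the normal diet. Both extracts belong to experiment 2, in which RNA was taken with Qiagen reagents. Other groups of that experiment served as landmarks: HF3 with its normal-diet counterpart HF3-REV (both offspring of HF2), HF1 with HF1-REV (both offspring of HF0), HF0 (high-fat offspring of STD), and STD, kept on the normal diet. Experiment 1, with Trizol extracts, held STD, HF0, HF3 and HF4. The labels give neither strain, age nor the number of animals behind an extract. One array carried HF4 in Cy5 and HF4-REV in Cy3, the other the reverse, so the pair is a dye swap of 1 extract per group, counted as n = 1 per group. The swap has no replicate and its means carry no test; the values of both arrays are therefore printed, the array with HF4 in Cy5 first.

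Each value is a log2 ratio of HF4 over HF4-REV, read as Cy5 over Cy3 and turned on the swapped array. Which dye stood in the numerator when the authors formed the ratios is not stated. A positive value means more RNA in HF4 if Cy5 was the numerator and more in HF4-REV if Cy3 was, so genes are placed on the positive or the negative side and on no other scale. The members are the features (genes, or probes without a single gene name) with the same turned sign on both arrays, 14017 of 22879 (61.3%). A feature was called when, in addition, its mean over the swap lay at least 1 log2 unit from 0. That held for 2295 features (10.0%), 1348 on the positive side (5.89%) and 947 on the negative side (4.14%). How many of all features were positive on both arrays, and how many negative on both, was not counted. Such counts within a list therefore have no background share beside them. Scaling all arrays to the same spread left 1364 calls and quantile normalization 1113, of which 72.0% were positive, against 58.7% of the 2295, while the array with HF4 in Cy3 taken alone gave 3449. Past 2 log2 units lay 484 positive and 65 negative features. The members nearest the threshold were Ccdc57 at 1.0002 inside and 1700018G05Rik at 0.999 outside on the positive side, and Cnpy3 at -1.001 inside and Scoc at -0.999 outside on the negative side.

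White fat stores triglyceride and holds, besides adipocytes, blood vessels, fibroblasts and immune cells, among which macrophages take up lipid and debris through lysosomes and present antigen on MHC class II. The epididymal pad lies in the scrotal and lower abdominal cavity against the testis and epididymis. In the testis, germ cells pass through meiosis, and in the spermatids the histones are then replaced by transition proteins and finally by protamines while the acrosome and the flagellum are built.

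Both sides of the comparison were led by genes of such cells. The genes furthest on the positive side are made in male germ cells, and the genes furthest on the negative side included fatty acid uptake, MHC class II, complement, lysosomal and heme synthesis genes. The promoter windows of 4 genes are shown first, because these genes stood at the ends and because each holds a motif that was counted over the lists. They run from 250 bases before to 50 bases after the RefSeq transcription start (GRCm38.p6, 300 bases each, printed 5′ to 3′ along the gene's strand), with the matched motif in capitals. In Tnp1 and Prm1 this is TGACNTCA, a form of the cyclic AMP response element, in Mael it is CACGTG, the E-box, and in H2-Aa it is CTGATTGG, the Y box of class II promoters. Tnp1 (chr1:73015850-73016149, minus strand) and Prm1 (chr16:10796774-10797073, minus strand) encode a transition protein and a protamine, Mael (chr1:166238695-166238994, minus strand) a protein that represses transposons in germ cells, and H2-Aa (chr17:34287774-34288073, minus strand) a class II chain.
Tnp1: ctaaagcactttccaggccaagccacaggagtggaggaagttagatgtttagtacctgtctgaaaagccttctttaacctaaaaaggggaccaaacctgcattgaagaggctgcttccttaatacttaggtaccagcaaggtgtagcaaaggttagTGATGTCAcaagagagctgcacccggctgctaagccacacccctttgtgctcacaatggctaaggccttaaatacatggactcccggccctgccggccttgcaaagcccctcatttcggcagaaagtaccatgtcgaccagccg
Prm1: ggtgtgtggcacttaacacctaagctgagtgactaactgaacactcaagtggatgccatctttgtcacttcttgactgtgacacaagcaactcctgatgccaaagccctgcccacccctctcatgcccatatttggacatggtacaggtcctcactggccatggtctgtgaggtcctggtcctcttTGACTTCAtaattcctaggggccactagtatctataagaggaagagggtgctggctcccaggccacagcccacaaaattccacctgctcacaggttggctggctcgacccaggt
Mael: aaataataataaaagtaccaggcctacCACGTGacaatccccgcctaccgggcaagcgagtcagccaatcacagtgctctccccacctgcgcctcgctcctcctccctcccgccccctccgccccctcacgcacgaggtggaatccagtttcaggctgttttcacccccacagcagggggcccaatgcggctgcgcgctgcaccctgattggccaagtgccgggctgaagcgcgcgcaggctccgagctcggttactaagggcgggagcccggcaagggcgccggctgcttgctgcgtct
H2-Aa: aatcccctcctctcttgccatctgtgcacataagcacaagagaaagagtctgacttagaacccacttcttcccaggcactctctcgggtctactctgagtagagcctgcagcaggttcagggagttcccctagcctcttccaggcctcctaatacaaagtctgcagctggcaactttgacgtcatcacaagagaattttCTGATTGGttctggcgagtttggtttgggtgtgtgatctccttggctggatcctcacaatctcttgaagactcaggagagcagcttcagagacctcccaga

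The Tnp1 match reads TGATGTCA, the motif on the opposite strand, and begins 94 bases before the start. The Prm1 match, TGACTTCA, begins 64 bases before it, that of Mael 223 bases and that of H2-Aa 51 bases before it. Both strands of the 300-base windows of all 27025 genes in the promoter table were searched, and the matches in these 4 windows did not overlap each other. The Mael window also holds CTGATTGG and the H2-Aa window TGACNTCA, left in lower case. TGACNTCA stood in 10.0% of all genes, in 4 of 9 sperm chromatin genes with a window, in 12 of 31 flagellum genes, in 5 of 17 acrosome genes, in 2 of 22 meiosis genes and in 4 of 14 antigen presentation genes. CACGTG stood in 8.09% of all genes, in 9 of 22 meiosis genes, in 0 of 9 sperm chromatin genes, in 1 of 17 acrosome genes, in 1 of 31 flagellum genes and in 1 of 14 antigen presentation genes. CTGATTGG stood in 4.70% of all genes in 8 of 14 antigen presentation genes, in 6 of 22 meiosis genes, in 1 of 9 sperm chromatin genes, in 1 of 17 acrosome genes and in 2 of 31 flagellum genes. These are descriptions of letters, with no test and no statement on any factor. Tnp2, Prm3, Prm2 and Prm1 start within 8168 bases of each other on the minus strand of chromosome 16, and all 4 were called on the positive side.

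**Figure D1:**
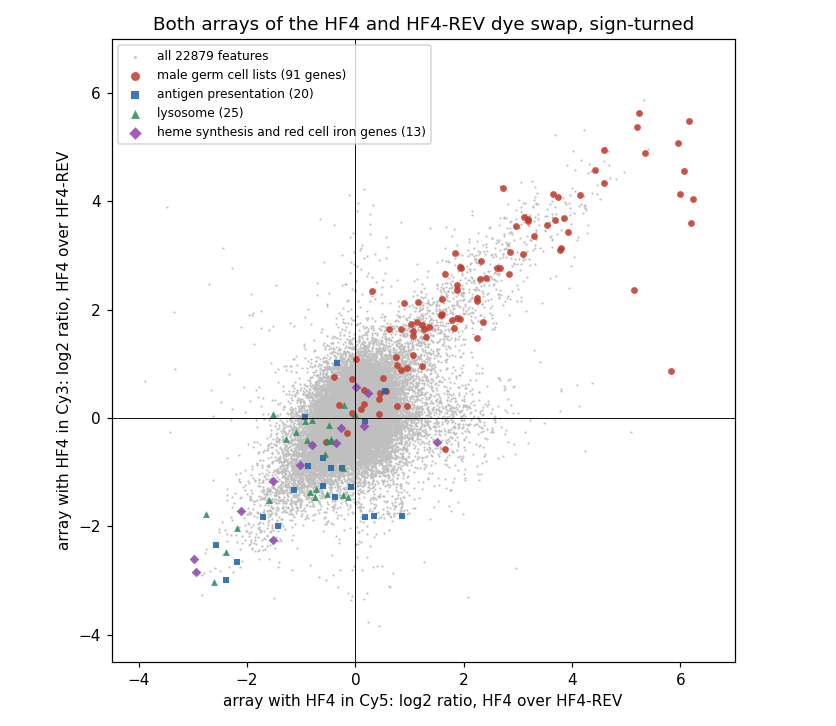
Log2 ratio of HF4 over HF4-REV on the array with HF4 in Cy5 (horizontal) against the array with HF4 in Cy3 (vertical), for all 22879 features (grey) and 4 sets of genes (coloured). Germ cell genes reach 5.82 at the upper right and antigen presentation, lysosome and heme genes reach -2.89 at the lower left; the correlation between the arrays across features was 0.57.

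Male germ cell genes made up the far positive end. Of 91 distinct genes in 4 germ cell lists, 84 were positive on both arrays, 2 negative on both, and 69 were called positive, against a background of 5.89%. Their median was 2.06, against 0.02 over all features, and they ran between -0.49 and 5.82. The highest mean of all features belonged to Crisp2, a protein of the acrosome and tail of sperm, with 6.16 and 5.48 on the arrays and a mean of 5.82.

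Spermatogonial and meiotic genes were positive in 27 of 29 cases with 19 calls and a list median of 1.80. Spz1, a transcription factor of spermatogenic cells, gave 5.95 and 5.09. Meig1, needed for building the sperm flagellum, gave 5.35 and 4.90. Mael gave 4.59 and 4.95. The values of these 3 genes differed between the arrays by less than 1 log2 unit. Adam2, a sperm surface protein, gave 3.64 and 4.14, and the germ line RNA helicase Ddx4 gave 2.96 and 3.54. Piwil1, which binds piRNAs, gave 3.18 and 3.64. Among genes of early meiosis, Spo11, which makes the breaks of meiotic recombination, had a mean of 2.43 and Sycp3, of the synaptonemal complex, 2.36. Both lay below the genes just named but above the list median of 1.80. Stra8, the retinoic acid-induced gene at meiotic entry, had a mean of 0.87 and the recombinase Dmc1 changed sign between the arrays, -0.40 and 0.76.

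All 10 sperm chromatin genes were called positive, with a list median of 3.83. Tnp2, a transition protein, gave 6.06 and 4.57. Prm1 gave 6.22 and 4.04, and Tnp1 gave 6.20 and 3.60. For these 3 genes the array with HF4 in Cy5 read higher by more than 1 log2 unit, so their size is less certain than their side. H1f7, a linker histone of spermatids, gave 4.41 and 4.58, and H2bl1, a spermatid histone variant, 3.73 and 4.09. Prm2 had a mean of 3.75, from 5.14 and 2.36. The lowest members were Crem, an activator of post-meiotic genes, at a mean of 1.29, and the kinase Tssk6 at 1.45.

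Of the 22 acrosome and sperm surface genes, 19 were positive on both arrays and 17 called (median 1.98). Adam3, a sperm surface protein needed for migration into the oviduct, gave 5.20 and 5.38. Spaca1, of the acrosomal membrane, gave 4.14 and 4.11, and Plcz1, the sperm phospholipase that activates the egg, 3.68 and 3.66. These pairs were nearly the same on both arrays. Izumo1, the sperm ligand for egg fusion, had a mean of 1.90. Of the 32 flagellum and motility genes, 30 were positive on both arrays and 25 called (median 2.29). Pdcl2, a testis protein of the phosducin family, gave 5.23 and 5.64, Gsg1, a germ cell-specific membrane protein, 5.99 and 4.14, and the outer dense fibre gene Odf2 4.59 and 4.34. The microtubule-binding gene Spef1 was negative on both, -0.54 and -0.45, and so was Slc26a8, a sperm anion transporter, with a mean of -0.21.

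The other genes among the 15 most positive were Clec2m (5.33 and 5.87), Dnajb3 (5.41 and 4.97), 4930408G06Rik (mean 4.81), Gk2, a testis glycerol kinase (4.22 and 5.32), and Nlrp14 (4.96 and 4.54). Paralogs of 2 housekeeping genes were also called positive, and were picked after their values had been seen. Rpl39l, the testis paralog of a ribosomal protein gene, gave 3.38 and 3.67, while the 71 ribosomal protein genes had a median of -0.40. Psma8, the germ cell subunit of the proteasome, gave 2.92 and 2.84, while the 39 proteasome genes had a median of -0.55. The ribosomal median rested on 1 array, being 0.17 on the array with HF4 in Cy5 and -1.27 on the other. Pdpk1, an insulin-pathway kinase, was called positive too, with 2.08 and 1.92. It was the only call among 19 insulin signalling genes (5.26%, against 5.89% positive over all features). Of these, 3 were positive and 9 negative on both arrays (median -0.17).

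**Figure D2:**
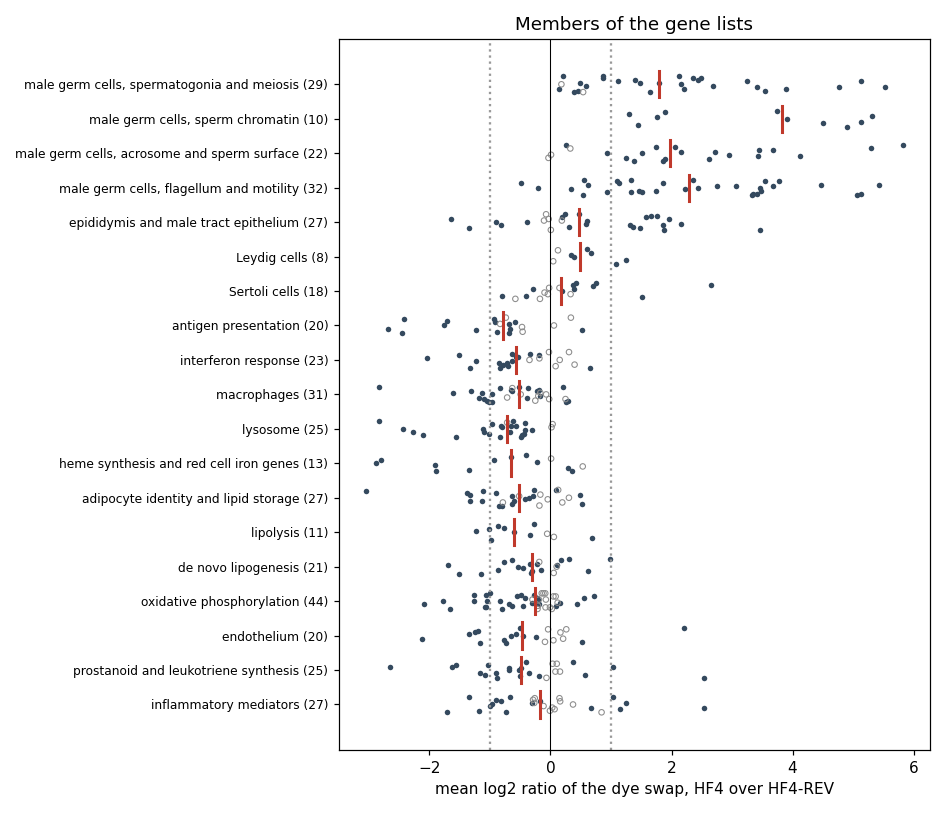
Mean log2 ratio of the dye swap, HF4 over HF4-REV, for every measured member of 19 lists (numbers of members in parentheses). Filled points had the same sign on both arrays and open points did not, red bars are list medians and dotted lines mark the calling threshold of 1 log2 unit; the 4 germ cell lists have medians between 1.80 and 3.83, and the lysosome and antigen presentation lists -0.72 and -0.78.

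Markers of other cells of the testis were lower on the positive side than germ cell genes. Of 8 Leydig cell genes, 6 were positive on both arrays and none negative on both; the steroid hydroxylase Cyp17a1 gave 1.91 and 0.57 and Star, which carries cholesterol into mitochondria, 1.15 and 1.01 (list median 0.49). Among 18 Sertoli cell genes, 2 were called positive (11.1%, against 5.89% over all features), and the list median was 0.17. These were Defb19 with 2.65 and 2.65 and the tight junction gene Cldn11 with 1.25 and 1.76. The defining Sertoli genes Amh (mean 0.15), Fshr (-0.10) and Sox9 (-0.17) changed sign between the arrays. Of 27 genes of the epididymis and male tract, 11 were called positive (40.7%) and 2 negative (7.41%), with a median of 0.47. Over all features the shares were 5.89% and 4.14%, so the negative share was near that of all features. The epididymal lipocalin Lcn5 gave 3.29 and 3.64 and the protease inhibitor Spink8 1.98 and 2.32. On the other side lay the lipocalin Lcn8 with -1.53 and -1.76 and the cystatin Cst11 with -1.36 and -1.33. The tissue label is epididymal fat in both channels, and what share of the ratios these other cells carry was not tested. In such tissue extracts, fewer cells of a type and less RNA per cell cannot be told apart.

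Where HF4 and HF4-REV stood among the other groups was read from least squares group values of experiment 2, set relative to HF0. For the 91 germ cell genes the median was 2.17 in HF4 and -0.03 in HF4-REV. HF3 stood at 1.34 and STD at 1.14, and HF3-REV (0.11), HF1 (0.07) and HF1-REV (-0.17) lay near HF0. HF3 and STD, a normal-diet group, thus lay on the same side of HF0 as HF4, while HF4-REV lay with HF0, HF1 and the other reversal groups. Whether that side means more or less RNA depends on the numerator, as for the ratios. Experiment 1, which had other extracts and no reversal group, gave 1.74 in HF4, 1.03 in HF3 and 0.29 in STD. Tnp2 stood at 5.47 in HF4 and 0.15 in HF4-REV, against 3.76 in HF3 and 4.91 in STD of experiment 2. STD of experiment 2 also stood apart on the epididymal list, with a median of 3.42, against 0.38 in HF4 and -0.09 in HF4-REV.

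**Figure D3:**
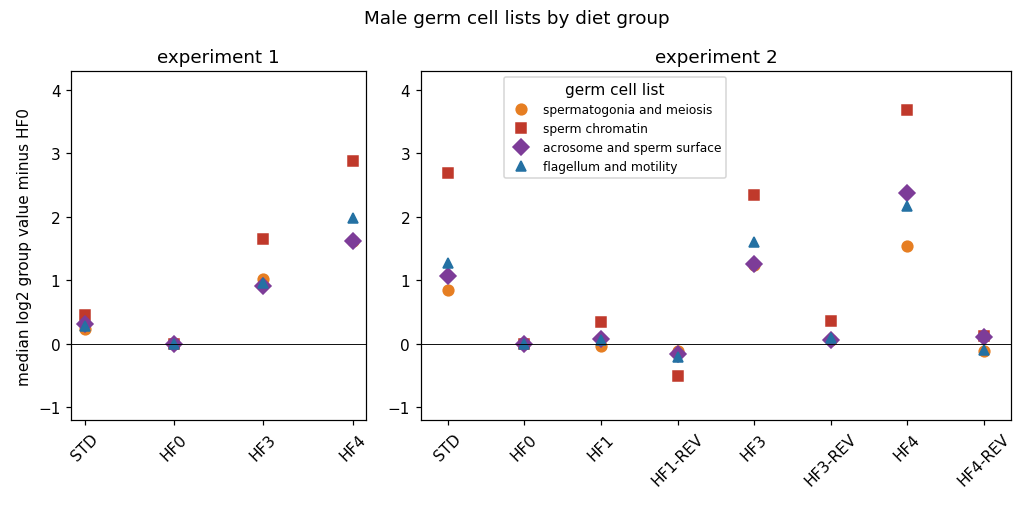
Median log2 group value minus HF0 of 4 germ cell lists (symbols) in the diet groups of experiment 1 (left) and experiment 2 (right). The sperm chromatin list stands at 3.68 in HF4 and 0.13 in HF4-REV, with 2.35 in HF3 and 2.70 in STD of experiment 2.

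The negative side was led by Cd36, the fatty acid and lipoprotein receptor of adipocytes, capillaries and macrophages, with -2.83 and -3.27 and a mean of -3.05. It was the lowest mean of all features. Fech, which puts iron into heme, followed among named genes with -2.94 and -2.83, and Lyz1, a lysozyme of myeloid and Paneth cells, with -2.80 and -2.87. Of the 15 most negative genes, Qpct, Prrg1, Mbnl1 and Mfsd14b had means between -2.59 and -2.47. The pairs of all these genes differed by less than 1 log2 unit between the arrays.

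Antigen presentation genes were on the negative side in 13 of 20 cases and on the positive side in 1, with 6 called negative against a background of 4.14%, and a median of -0.78 against 0.02. H2-Aa, whose promoter is shown above, gave -2.38 and -2.98. Cd74, the class II invariant chain, gave -2.58 and -2.34, and H2-DMa, which loads peptide onto class II, -2.18 and -2.65. Other class II chains were discordant between the arrays, H2-Ab1 with 0.34 and -1.81 and H2-Eb1 with 0.17 and -1.83. H2-Ea was positive on both, 0.55 and 0.50. The list median itself was -0.52 on the array with HF4 in Cy5 and -1.31 on the other. Interferon response genes had a median of -0.57, with 4 of 23 called negative against 4.14% over all features, among them the virus-tethering gene Bst2 (-1.41 and -2.66) and the 2'-5' oligoadenylate synthetase gene Oas1a (-1.45 and -1.57).

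Of 31 macrophage genes, 19 were negative on both arrays, 3 positive on both and 8 called negative, against 4.14% over all features (median -0.52). The lysosomal glycoprotein Cd68 gave -1.03 and -1.61 and the mannose receptor Mrc1 -1.14 and -1.24. Adgre1, the F4/80 antigen, lay just outside the calls with -1.09 and -0.83. Lgals3 (0.41 and 0.18) and Mmp12 (0.34 and 0.16) lay on the positive side and were not called. Genes of the lysosome were negative on both arrays in 22 of 25 cases and positive on both in 0, with 8 called and a median of -0.72. The protease Ctsh gave -2.62 and -3.03, the cholesterol carrier Npc2 -2.38 and -2.48, the protease Ctsd -2.76 and -1.77 and the ceramidase Asah1 -2.19 and -2.02. This list was added after the values had been seen. The 3 chains of complement C1q, made mainly by macrophages, were all called negative: C1qc gave -2.60 and -2.77, C1qa -2.37 and -2.14, and C1qb -1.08 and -1.65. In the acute phase and complement list that holds them, 6 of 16 genes were called negative and 0 positive, while the list median was 0.14, with 0.17 on the array with HF4 in Cy5 and -0.07 on the other. Saa3, an acute phase serum amyloid gene, lay on the other side with 0.84 and 1.03.

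Both ends of heme synthesis were among the 5 most negative named genes. Alas2, the red cell form of the first enzyme, gave -2.98 and -2.61, beside Fech, the last enzyme, given above. Bpgm (-2.12 and -1.71), Slc40a1, the iron exporter (-1.53 and -2.25), and Slc25a37, the mitochondrial iron importer (-1.53 and -1.17), were called too. That made 5 of 13 called negative, against 4.14% over all features, in a list added after the values had been seen. The globin gene Hbb-b1, with -0.22 and -2.07, had a mean of -1.14, and Hba-a1 changed sign with 0.53 and -2.12. Alas1, the form of other tissues, had a mean of 0.35.

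Adipocyte genes lay mostly on the negative side, Cd36 among them. Of 27 identity and storage genes, 16 were negative and 3 positive on both arrays, 6 were called negative (4.14% over all features) and the median was -0.52. Cidec, a lipid droplet protein, gave -1.61 and -1.05, and Pck1, for glycerol synthesis, -1.12 and -1.54. Pparg, the regulator of adipocyte differentiation, had a mean of -0.86 and Plin1, which coats lipid droplets, -0.36; neither was called. Fabp4, the fatty acid binding protein of adipocytes, was discordant with 0.71 and -1.75. In lipolysis (11 genes, median -0.60) the hormone-sensitive lipase gene Lipe gave -0.63 and -1.39, and G0s2, an inhibitor of adipose lipase, -1.99 and -0.47. Among 21 lipogenesis genes (median -0.31, 3 called) the desaturase gene Scd1 gave -1.58 and -1.81 and Thrsp -1.36 and -1.66, while Fasn, the fatty acid synthase gene, lay on the other side with 1.40 and 0.58 and a mean of 0.99. Of the adipokines, Retn gave -1.53 and -1.54 and Adipoq -0.74 and -0.18, and Lep gave 0.46 and 0.01. Mest, a gene tied to fat mass expansion in mice, gave -1.17 and -1.10, and Sfrp4, from the same list, 0.99 and 0.72.

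Of 44 genes of oxidative phosphorylation, 25 were negative and 5 positive on both arrays, and 9 were called negative, against 4.14% over all features (median -0.25). They spanned several complexes: Ndufa4 gave -2.28 and -1.89, Atp5g1 -1.54 and -2.02, Ndufs3 -1.38 and -1.95, and the succinate dehydrogenase genes Sdhb and Sdhc had means of -1.26 each. Endothelial genes had a median of -0.47 with 5 of 20 called negative, led by the VEGF receptor Kdr with -1.79 and -2.46. Selp, an adhesion molecule of activated endothelium and platelets, was called on the other side with 2.37 and 2.05. Krt8 and Krt18, keratins of the mesothelium and other epithelia, were called positive with means of 2.02 and 2.10. They were the only calls among 15 mesothelium genes, against 5.89% called positive over all features. Of these 15 genes, 7 were positive and 4 negative on both arrays (median 0.14).

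Of 27 inflammatory genes, 11 were negative and 5 positive on both arrays, with a median of -0.18. On each side 4 were called (14.8%), against 5.89% positive and 4.14% negative over all features. The prostaglandin synthase gene Ptgs2 gave 2.81 and 2.26, Il6 0.96 and 1.55, Cxcl1 2.11 and 0.19, and Il1rn 1.28 and 0.78, and all 4 were called positive. Called negative were the chemokine genes Ccl4 (-1.88 and -1.54), Ccl8 (-1.39 and -1.29), Cxcl12 (-1.53 and -0.83) and Ccl3 (-1.19 and -0.82). Tnf was negative on both, -0.75 and -0.71, and Ccl2 changed sign with 0.75 and -1.32. In the eicosanoid list (25 genes, median -0.49) 6 genes were called negative and 2 positive. Its member Alox5ap, which hands arachidonic acid to 5-lipoxygenase, gave -2.50 and -2.82, on the other side from Ptgs2.

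The same group values place the negative calls. Over the 947 negative calls, the median relative to HF0 in experiment 2 was -0.18 in HF4 and 1.15 in HF4-REV. HF3 (0.56), HF3-REV (0.71), HF1 (0.71) and HF1-REV (0.74) all stood between HF4 and HF4-REV, and STD stood at -0.01. In 855 of the 947 (90.3%), all 4 of these middle groups lay above HF4, against 27.5% of all features. In 1137 of the 1348 positive calls (84.4%), all 4 lay below HF4, against 27.6% of all features. Both counts follow in part from choosing genes by the HF4 over HF4-REV ratio, and nothing is read from them. By the medians of the negative calls HF4 stood near HF0 and STD, and HF4-REV furthest from them. The choice of genes by this swap fixed that placing in part. Single genes differed. In 362 of the 947 HF4-REV alone lay outside the range of the other 6 groups, in 316 both HF4-REV and HF4. In 154 HF4 alone lay outside it, and in 115 neither. The same shares were not counted over all features, so nothing is read from these counts either. Cd36 stood at -0.38 in HF4 and 2.67 in HF4-REV, against 2.74 in HF1, 3.35 in HF1-REV, 1.86 in HF3 and 2.21 in HF3-REV. The value of HF4-REV rests on this dye swap alone, so choosing genes by the swap moves HF4-REV outwards in the chosen genes. The value of HF4 rests on its other pairings, so array error of this swap does not enter it. Choosing genes in which the HF4 extract itself stood apart can still move HF4 the other way. Over the 1348 positive calls the medians were 1.57 in HF4, -0.10 in HF4-REV, 0.82 in HF3, 0.91 in STD, and between -0.12 and 0.02 in HF3-REV, HF1 and HF1-REV. The control gene Actb, spotted 305 times, lay on the negative side too, with means over its spots of -1.59 ± 0.36 and -2.59 ± 0.32 (SD over spots), while the other much-spotted control, Gapdh, with 257 spots, gave 0.55 ± 0.23 and -0.52 ± 0.28.

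**Figure D4:**
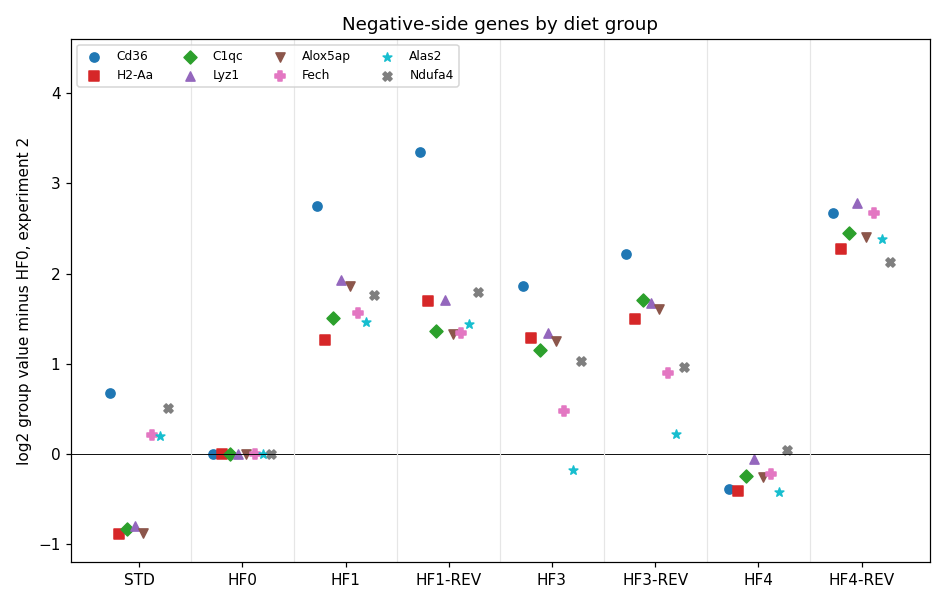
Log2 group value minus HF0 in experiment 2 (vertical) for 8 genes of the negative side in the 8 diet groups (horizontal). In HF4 the 8 genes lie between -0.42 and 0.05 and in HF4-REV between 2.13 and 2.78, with the HF1 and HF1-REV values of these genes above those of HF4.

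A fit across all features with limma on 12 group values of both experiments (HF4 from 2 experiments, HF4-REV from 1) passed 2552 features at an adjusted p under 0.05 (11.2%), 1682 positive (7.35%) and 870 negative (3.80%). With quantile-normalized arrays it passed 516, of which 88.0% were positive, against 65.9% of the 2552. That fit takes HF4-REV, read from 1 dye swap, to be as precise as groups read from several pairings. With the group values weighted by the precision of the array layout, an alternative chosen after seeing the data, limma passed 0 features, with 2205 at an unadjusted p under 0.05 and a lowest adjusted p of 0.133. The difference between HF4 and HF4-REV is therefore described by the values above and by no test that held under both weightings.

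The same reversal of diet was measured in 2 earlier generations, each on 1 dye swap: HF3 against HF3-REV and HF1 against HF1-REV. The HF4 swap had the widest spread of the 16 pairings, with an SD of 0.71 across features against 0.27 to 0.64, and its turned arrays correlated at 0.57, against 0.15 for the HF3 swap and -0.31 for the HF1 swap. In the HF3 swap 46.0% of the features had the same sign on both arrays and 749 were called (3.27%), 679 positive (2.97%) and 70 negative (0.306%). In the HF1 swap 32.9% had the same sign and 150 were called (0.656%), 105 positive (0.459%) and 45 negative (0.197%). Of the 1348 positive calls of HF4, 566 were called positive in HF3 (42.0%, or 83.4% of the positive calls of HF3), and 55 in HF1 (4.08%, or 52.4% of those of HF1). Of the 947 negative calls, 5 were called negative in HF3 (0.528%, or 7.14% of the negative calls of HF3), and 5 in HF1 (0.528%, or 11.1% of those of HF1). The 3 swaps share neither a high-fat group nor a reversal group.

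For the 91 germ cell genes the medians were 2.06 in the HF4 swap, 1.35 in the HF3 swap and 0.19 in the HF1 swap, with 69, 55 and 15 called positive. Crisp2 had means of 5.82, 3.17 and 3.71 in these swaps, and Meig1 5.12, 3.71 and 0.75. Of the 27 epididymal genes the medians were 0.47 in the HF4 swap, 0.38 in the HF3 swap and 0.38 in the HF1 swap. Members differed from this: Lcn5 had means of 3.47 in the HF4 swap, 0.35 in the HF3 swap and 4.26 in the HF1 swap, and Spink8 2.15, 1.52 and 4.48. Cd36 had means of -3.05, -0.35 and -0.60, H2-Aa -2.68, -0.21 and -0.44, and Alas2 -2.79, -0.41 and 0.02. Cidec and Pck1 were of like size in the HF4 and HF1 swaps, with -1.33 and -1.11 for Cidec and -1.33 and -1.15 for Pck1, against -0.82 and -0.85 in the HF3 swap. As a test of the difference itself, limma passed 0 features for the HF4 reversal minus the HF3 reversal and 0 for the HF4 reversal minus the HF1 reversal, with 3831 and 4210 at an unadjusted p under 0.05. Both counts were also 0 with the layout weights. Without the STD extract of experiment 2 they were 551 and 1254, and with 1 array of the HF4 swap left out between 653 and 1208, so no gene is named here as differing between generations.

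**Figure D5:**
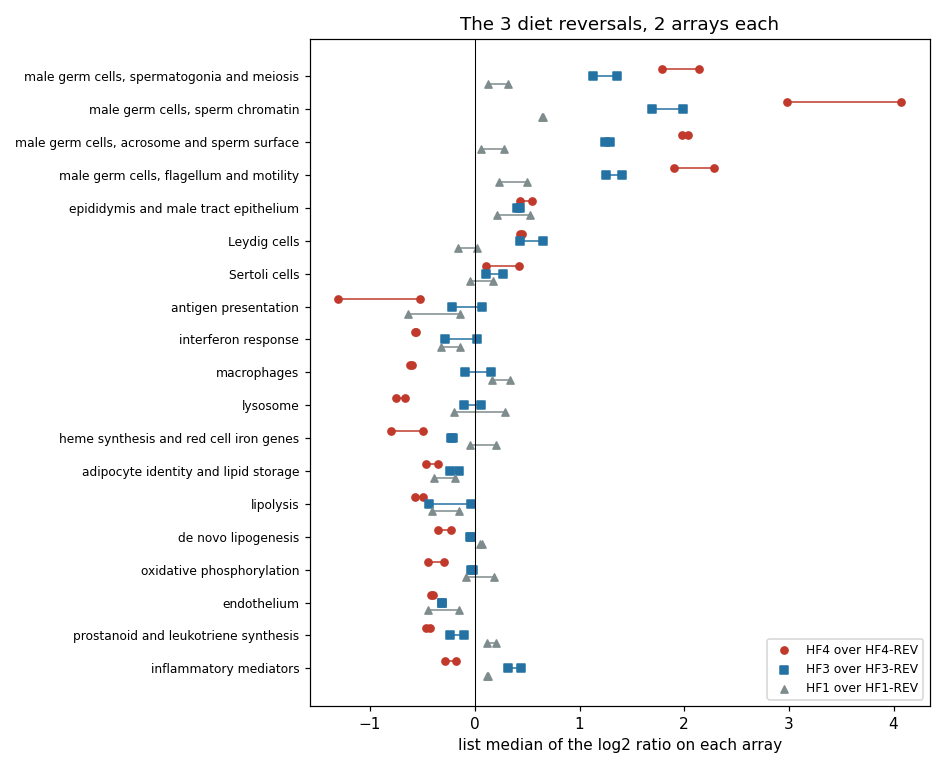
Median log2 ratio of 19 gene lists on each of the 2 arrays of the dye swap (points joined by a line), for HF4 over HF4-REV, HF3 over HF3-REV and HF1 over HF1-REV. The lysosome and macrophage medians of the HF4 swap lie between -0.75 and -0.60, and the germ cell medians of the HF3 swap lie below those of the HF4 swap.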

How the data were processed

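Gene expression was measured in mouse epididymal fat on 34 two-colour arrays, and the ratios analysed here come from 1 deposited table of 25344 probes. Per the labels, each array held 1 Cy3-labelled and 1 Cy5-labelled RNA. The values the authors deposited are log ratios, read here as log2: their maximum, 7.99, exceeds the largest log10 ratio of 16-bit scans, 4.82. Base e would fit too, so ratios are not turned into folds. For the numerator, background correction, normalization and filters, the steps are not stated in the labels. The deposited medians lie between -0.06 and 0.05 per array (0.00 and -0.01 on the 2 arrays of HF4 with HF4-REV). Intensities were not used here, so dim spots stayed in; precision is limited by how few arrays there are.

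Probes with 1 gene symbol (21082) were averaged per gene and those with several (30) or none (4232) kept as unnamed features, 22879 features in all, 18617 of them named. Arrays were centred on their medians, turned and averaged over the swap. Group values came from least squares within each experiment. They were tested with limma 3.58.1 (R 4.3.3) blocking on experiment (residual degrees of freedom 3, prior 3.16), with Benjamini-Hochberg adjusted p-values. The spread behind these p-values comes from the groups measured in both experiments, holds array error as well as extract differences, and may be technical. The variance among extracts was estimated at 0.00039, against 0.128 from the array layout for HF4-REV. It is 1 robust value pooled over all features and does not hold for each list. For sperm chromatin genes, the median of STD minus HF0 was 0.46 in experiment 1 and 2.70 in experiment 2. For epididymal genes it was 0.58 and 3.42. Arrays were also simulated in this layout, with the same noise for every gene and little spread among extracts. There the unweighted fit called unchanged genes more often than its threshold allows, and the fit weighted by the array layout did not. The weights match the simulated noise by construction, so this does not show how the weighted fit behaves on the real arrays. Promoter sequences are those of RefSeq (GRCm38.p6). Tables and figures used Python 3.11.15, numpy 2.4.6, pandas 2.3.3 and matplotlib 3.10.9. Named genes were the 15 most positive and 15 most negative, up to 4 members of each list and its most extreme member on the other side, a panel of 27 genes and the 8 most extreme on each side past limma; Rpl39l, Psma8 and other list members given as values were added after seeing them. The comparison, the 42 lists and the rule were chosen with earlier results of these data known, and 6 further lists (heme synthesis, lysosome, ribosomal proteins, proteasome, olfactory and vomeronasal receptors) were added after seeing the values.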

Additional observations from a re-analysis of the deposited data

Results flagged for a closer look

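Some lists had their median on one side on both arrays of HF4 against HF4-REV and on the other side on both arrays of an earlier reversal; these differences were not tested. Macrophage genes had a median of -0.52 in HF4 against HF4-REV and 0.21 in HF1 against HF1-REV. The eicosanoid list had -0.49 in the HF4 swap and 0.15 in the HF1 swap. Inflammatory mediators had -0.18 in the HF4 swap, 0.31 in the HF3 swap and 0.13 in the HF1 swap. Cholesterol synthesis and uptake genes had -0.17 in the HF4 swap and 0.25 in the HF1 swap, glucocorticoid and steroid metabolism genes -0.206 in the HF4 swap and 0.0692 in the HF1 swap, and heat shock protein genes -0.0809 in the HF4 swap and 0.0880 in the HF1 swap.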

How the results depend on the processing

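The direct comparison gave 2295 calls. Scaling the arrays to the same median absolute deviation left 1364 calls and quantile normalization 1113, of which 68.4% and 72.0% were positive, against 58.7% of the 2295. Calling at 0.5 log2 units gave 6673 and at 2 log2 units 549. With 1 array of the swap left out the counts were 3071 to 3449. Under the other 6 alternatives (no centring, median over probes, dye effect of the other swaps subtracted, no requirement on the sign, both values past 1, each probe by itself) they stayed within 1.5 times. The limma count of 2552 became 1094 with scaled arrays (82.4% positive), 516 with quantile normalization (88.0% positive, against 65.9%), 4076 with a trended prior, 4884 without the STD extract of experiment 2, 4378 to 6458 without 1 array of the swap, and 0 with weights from the array layout. For the difference from the HF3 reversal, 0 features became 1143 with the trended prior, 551 without that STD extract and 784 to 1208 without 1 array of the swap. For the difference from the HF1 reversal, the counts were 484, 1254 and 653 to 757. The cause of these shifts was not tested. Experiment 2 alone leaves no residual degrees of freedom and was not run. No paired analysis was possible because the replicate numbers of the arrays are accession order and pair nothing. With the arrays scaled, 29 of 48 list medians and 86 of 201 named-gene values moved by less than the spread between the 2 arrays, and with quantile normalization 28 and 80 did. Leaving out 1 array cannot move a gene's mean past that spread or turn a called gene, so it says nothing of their stability. It turned the medians of 8 lists: thermogenic fat, acute phase and complement, immediate early genes, neutrophils, B and plasma cells, smooth muscle, skeletal muscle and ribosomal proteins (0.17 without the array with HF4 in Cy3).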

Other observations

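Genes of the extracellular matrix had a median of -0.35, with -0.09 on the array with HF4 in Cy5 and -0.71 on the other. Called negative were 4 of 36 (11.1%), against 4.14% over all features. Among these 4 were the proteoglycan Lum (-2.62 and -1.15) and the collagen gene Col1a1 (-0.65 and -1.68). Fibroblast genes had a median of -0.43, with -0.18 on the array with HF4 in Cy5 and -0.73 on the other. The median was -0.50 for T and NK cell genes, with 0 of 17 called. For antioxidant genes it was -0.45, led by the glutathione peroxidase gene Gpx1 with -2.78 and -2.49. Neutrophil genes had a median of 0.20, with -0.16 on the array with HF4 in Cy5 and 0.33 on the other. Of 15, 5 were positive and 5 negative on both arrays. Called negative were 3 (20.0%, against 4.14% over all features) and called positive 0 (against 5.89%). The highest mean in this list was 0.87. Among those called negative, Retnlg, a resistin-like protein, gave -2.69 and -2.82 and the gelatinase Mmp9 -1.85 and -2.25. Mast cell genes had a median of 0.32, with the histidine decarboxylase gene Hdc called at 1.63 and 1.46.

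Medians of the other lists were -0.25 for adipokines, -0.30 for fatty acid oxidation, -0.24 for PPAR targets, -0.13 for fat mass expansion, 0.18 for thermogenic fat, -0.17 for insulin signalling, -0.07 for hypoxia and glycolysis, -0.06 for immediate early genes, -0.10 for clock genes, -0.55 for red cells, 0.01 for B and plasma cells, 0.14 for mesothelium, -0.04 for smooth muscle, 0.14 for skeletal muscle and 0.01 for nerve. Olfactory receptor genes, 737 features, had a median of 0.09 with 8 called positive (1.09%) and 11 negative (1.49%). Over all features the shares were 5.89% and 4.14%. The 112 vomeronasal receptor genes had a median of 0.17 with 0 called. Among single adipose genes, the uncoupling protein gene Ucp1 gave 0.59 and -0.42, the natriuretic peptide clearance receptor gene Npr3 -0.73 and -0.80, the pyruvate dehydrogenase kinase gene Pdk4 0.39 and 1.29 and the carnitine palmitoyltransferase gene Cpt1b 0.91 and 1.65.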
